A study of Mus musculus with 12 samples.

Results

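Foxp3, Il2ra, Ikzf2, Ikzf4, Ccr8, Il10 and Lrrc32, 7 genes widely used to describe regulatory T cells, were followed in tumors grown from MC38, a mouse colorectal adenocarcinoma line. They were taken by symbol from a table of 18211 genes, in which all 7 were present, and were set beside Cd3e, a chain of the T cell receptor complex that stands here for T cells in total. Expression was measured by RNA sequencing of whole tumor tissue from 12 tumors, 3 in each of 4 groups. MC38 cells had been placed under the skin of female C57BL/6 mice aged 5 weeks, and treatment groups were formed on day 7. The CK group was given vehicle. The PB-020 group was given PB-020, an inhibitor of IGF-1R, a growth factor receptor of many tumor cells, at 50 mg/kg per day by oral gavage. The anti-PD-1 group was given 200 μg per mouse of an antibody against the checkpoint receptor PD-1, injected into the abdominal cavity on days 9, 12, 15 and 18. The PB-020+anti-PD-1 group, called the combination here, was given both. An isotype antibody for the groups without anti-PD-1 is not described in the sources used here. All 12 tumors came from 1 cell line, which limits them as a model, and tumor and host transcripts were read together.

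Regulatory T cells are CD4+ T cells that restrain other immune cells. Their identity rests on the transcription factor Foxp3, which acts together with other factors, and they depend on interleukin-2, which they bind through a high-affinity receptor that contains Il2ra (CD25). In tumors they often gather in number and carry activation receptors, and the suppressive cytokines interleukin-10 and TGF-beta are among the means by which they act. None of the other genes followed here is limited to these cells, since Il2ra marks activated T cells in general, Ikzf2 is also found in NK cells, Il10 in macrophages, and Lrrc32 in endothelial cells, platelets and fibroblasts.

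With anti-PD-1, given alone or with PB-020, transcripts of Foxp3, Ikzf4 and Il2ra were more abundant, by 2.58-fold, 2.33-fold and 1.83-fold in the fitted comparison of 6 tumors with anti-PD-1 against 6 without. The Il2ra call was the least stable, being lost in 6 of 12 fits that left out 1 tumor. Cd3e rose by 2.94-fold in the same comparison. Ikzf2, Ccr8, Il10 and Lrrc32 did not pass the adjusted threshold. No member passed in PB-020 against CK, or in the combination against anti-PD-1. Relative to Cd3e, Foxp3 overlapped between tumors with and without anti-PD-1, while Ikzf2 and Lrrc32 were lower with anti-PD-1 than without, as were 95.7% of all genes tested.

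The genes lie on 6 chromosomes. On the GRCm38.p6 assembly, Foxp3 spanned chrX:7579676-7595243 on the plus strand, Il2ra chr2:11642792-11693194 (plus), Ikzf2 chr1:69531207-69687351 (minus) and Ikzf4 chr10:128630839-128669671 (minus). Ccr8 spanned chr9:120092133-120094906 (plus), Il10 chr1:131019845-131024970 (plus), Lrrc32 chr7:98489305-98501831 (plus) and Cd3e chr9:44998735-45009663 (minus). Ikzf2 and Il10 thus share a chromosome, as do Ccr8 and Cd3e, at distant positions. The merged exons came to 1175 bases for Ccr8 and 1310 for Il10, and to between 4100 and 9548 bases for the other members.

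The promoters of the member that defines the lineage and of both surface receptors are shown here. Of these, Foxp3 and Il2ra rose with anti-PD-1, and Ccr8 did not pass the threshold. Each is the run of 250 bases before a transcription start that RefSeq places on GRCm38.p6, printed 5′ to 3′ on the strand of the gene. Capitals mark matches to the motifs searched. Foxp3 has 2 such starts. The first window lies at chrX:7579426-7579675 and the second at chrX:7580233-7580482, while the Il2ra window lies at chr2:11642542-11642791 and the Ccr8 window at chr9:120091883-120092132, all on the plus strand.
Foxp3, first start: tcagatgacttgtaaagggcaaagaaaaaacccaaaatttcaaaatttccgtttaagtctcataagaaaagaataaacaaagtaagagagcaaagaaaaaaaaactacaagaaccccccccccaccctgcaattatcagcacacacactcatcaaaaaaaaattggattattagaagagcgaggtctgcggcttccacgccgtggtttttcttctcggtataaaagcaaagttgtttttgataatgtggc
Foxp3, second start: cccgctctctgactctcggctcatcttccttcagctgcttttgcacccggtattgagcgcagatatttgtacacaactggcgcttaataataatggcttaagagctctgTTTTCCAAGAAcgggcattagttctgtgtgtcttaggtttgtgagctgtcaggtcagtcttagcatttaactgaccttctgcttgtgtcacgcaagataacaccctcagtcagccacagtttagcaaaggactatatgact
Il2ra: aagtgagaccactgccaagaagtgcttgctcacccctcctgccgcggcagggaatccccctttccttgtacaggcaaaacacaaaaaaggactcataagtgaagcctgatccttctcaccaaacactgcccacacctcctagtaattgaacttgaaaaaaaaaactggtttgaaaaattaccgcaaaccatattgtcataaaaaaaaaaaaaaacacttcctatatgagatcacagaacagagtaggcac
Ccr8: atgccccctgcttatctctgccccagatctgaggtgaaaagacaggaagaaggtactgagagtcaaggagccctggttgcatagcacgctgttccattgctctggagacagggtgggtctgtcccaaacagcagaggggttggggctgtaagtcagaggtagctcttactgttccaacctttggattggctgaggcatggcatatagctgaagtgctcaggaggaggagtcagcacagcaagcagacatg

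Both strands of these windows were searched for a forkhead motif (GTAAACA), a Runx motif (TGTGGTT), an AP-1 motif (TGAGTCA), the NFAT core (GGAAAA) and the STAT palindrome (TTCNNNGAA). Among 32851 promoter windows of the same length, 3.17% held the forkhead letters, 4.4% the Runx letters, 4.46% the AP-1 letters, 20.4% the NFAT core and 7.02% the STAT palindrome. The second Foxp3 window held TTTTCC, the NFAT core read from the other strand, beginning at position -141, and TTCCAAGAA, a STAT palindrome, beginning at position -139, where the last base before the start is -1. Both matches share their middle letters, so that they form the single run of capitals. The first Foxp3 window and those of Il2ra, Ccr8 and Cd3e held none of these sets of letters. These are matches of letters, and binding was not measured. RefSeq windows for Ikzf2, Ikzf4, Il10 and Lrrc32 were not used here.

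Expression is given as FPKM, fragments per kilobase of gene scaled to the library total, which the authors computed and which allows levels of different genes to be set side by side. Total expected counts lay between 16545394 and 17217035 per tumor. At this depth the members stood on few reads. Il10 had between 1 and 12 estimated counts per tumor, Ccr8 between 1 and 29, Ikzf4 between 10 and 68 and Foxp3 between 14.3 and 93.8. Il2ra had between 38 and 159, Ikzf2 between 88 and 169 and Lrrc32 between 120 and 220. The reference Cd3e, on which every ratio to it rests, had between 17 and 100. All 7 members were above the filter on low counts, which left 13563 genes to be tested. The filter asks for enough counts in a number of tumors equal to the smallest group, so that Il10 and Ccr8 could be admitted through the tumors in which they were high. Filtered on the CK and PB-020 tumors alone, neither gene passed.

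One tumor stood apart. Anti-PD-1 tumor 1 had a summed FPKM of 458 over 6 skeletal muscle markers, against 8.92 to 51.1 in the other 11 tumors, and the highest sum over 13 T cell markers, 87.2 against 15.9 to 68.1. It was also the highest of the 12 tumors for 5 of the 7 members. What muscle tissue in that library did to the values was not tested. Most edgeR results for the members and Cd3e that rest on this tumor, and the limma calls relative to Cd3e, are given with and without it. The Ikzf2 and Il10 differences over both anti-PD-1 groups are given with it only. So are the exact permutation tests, the ratios to other references, the marker sums and the other listed genes. It had the highest sum in 10 of 15 lists. With anti-PD-1, it set the upper end of the T cell, macrophage, dendritic, endothelial, platelet and fibroblast sums. The RNA came from whole tissue, so fewer cells of a type and less RNA per cell cannot be told apart. Whether the tumors were handled in batches is not given in the sources used here.

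Among the transcription factors, Foxp3, the master factor of the lineage, stood at 0.31, 0.48 and 0.37 FPKM in the CK tumors and at 0.40, 0.24 and 0.42 in the PB-020 tumors. It stood at 1.53, 0.62 and 0.69 FPKM in the anti-PD-1 tumors and at 0.97, 0.85 and 0.96 in the combination tumors. Every tumor with anti-PD-1 was above every tumor without it, and the combination tumors lay close together, whereas 1 anti-PD-1 tumor was far above the other 2. Over all genes tested, 3.54% were separated in this direction between the 6 tumors with anti-PD-1 and the 6 without. Mean FPKM was 0.387 ± 0.0862 (SD, n = 3) for CK and 0.353 ± 0.0987 for PB-020, against 0.947 ± 0.506 for anti-PD-1 and 0.927 ± 0.0666 for the combination.

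The fitted log2 difference of Foxp3 between tumors with and without anti-PD-1 was 1.37 (SE 0.25, adjusted p = 0.00264 by edgeR's quasi-likelihood test). Foxp3 was one of 3 members called in this comparison, all raised, in which 24.2% of all genes tested were called and 11.8% were raised. Without anti-PD-1 tumor 1 the difference was 1.11 (adjusted p = 0.00186), and the call held in all 12 fits that left out 1 tumor. Foxp3 counts were not whole numbers in any of the 12 libraries, which means that reads were shared out by estimation. The gene shares 590 exon bases with Ccdc22 on the opposite strand, which had between 463 and 701 counts per tumor. Counts of Ccdc22 were likewise fractional in all 12 libraries. Foxp3 also shares 376 exon bases with Flicr on the same strand, a gene that was not among those measured. Whether the counting used strand is not given in the sources used here, and how reads were shared was not tested. Foxp3 levels are uncertain by the share of reads in these overlaps.

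Ikzf4, which encodes Eos, a partner of Foxp3 in gene silencing, stood at 0.20, 0.13 and 0.24 FPKM in CK and 0.20, 0.17 and 0.19 in PB-020. It reached 0.82, 0.25 and 0.27 FPKM with anti-PD-1 and 0.47, 0.45 and 0.48 with the combination. The 6 tumors with anti-PD-1 again lay above the other 6, but anti-PD-1 tumor 2 at 0.25 only just cleared CK tumor 3 at 0.24. Foxp3 and Ikzf4 were the 2 of 7 members separated in this way. The log2 difference was 1.22 (SE 0.29, adjusted p = 0.00957 by edgeR), and 0.88 without anti-PD-1 tumor 1 (adjusted p = 0.0112). This call too held in all 12 fits that left out 1 tumor.

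Ikzf2 encodes Helios, a relative of Eos found in many regulatory T cells and in NK cells. Its FPKM was 0.56, 0.79 and 0.88 in CK, and 0.63, 0.64 and 0.60 in PB-020. It was 1.10, 0.70 and 0.88 in anti-PD-1, and 0.92, 0.89 and 0.70 in the combination. The CK tumors overlapped with every other group. The PB-020 tumors lay closest together, and below every tumor of both anti-PD-1 groups (at most 0.64 against at least 0.70). Between the combination and PB-020, 14.5% of all genes tested were separated upwards. The log2 difference with anti-PD-1 was 0.35 (SE 0.14, adjusted p = 0.075 by edgeR), below the threshold. Of 5 NK cell markers, Klrk1 and Klre1 rose in the same comparison, by 1.41 and 1.63, where 11.8% of all genes were raised. Ncr1 at 0.79, Klrb1c at 0.64 and Eomes at -0.11 were not called. The NK sum ranged from 5.19 to 7.85 FPKM without anti-PD-1 and from 6.99 to 15.6 with it. The part of NK cells in the Ikzf2 signal was not tested.

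**Figure D1:**
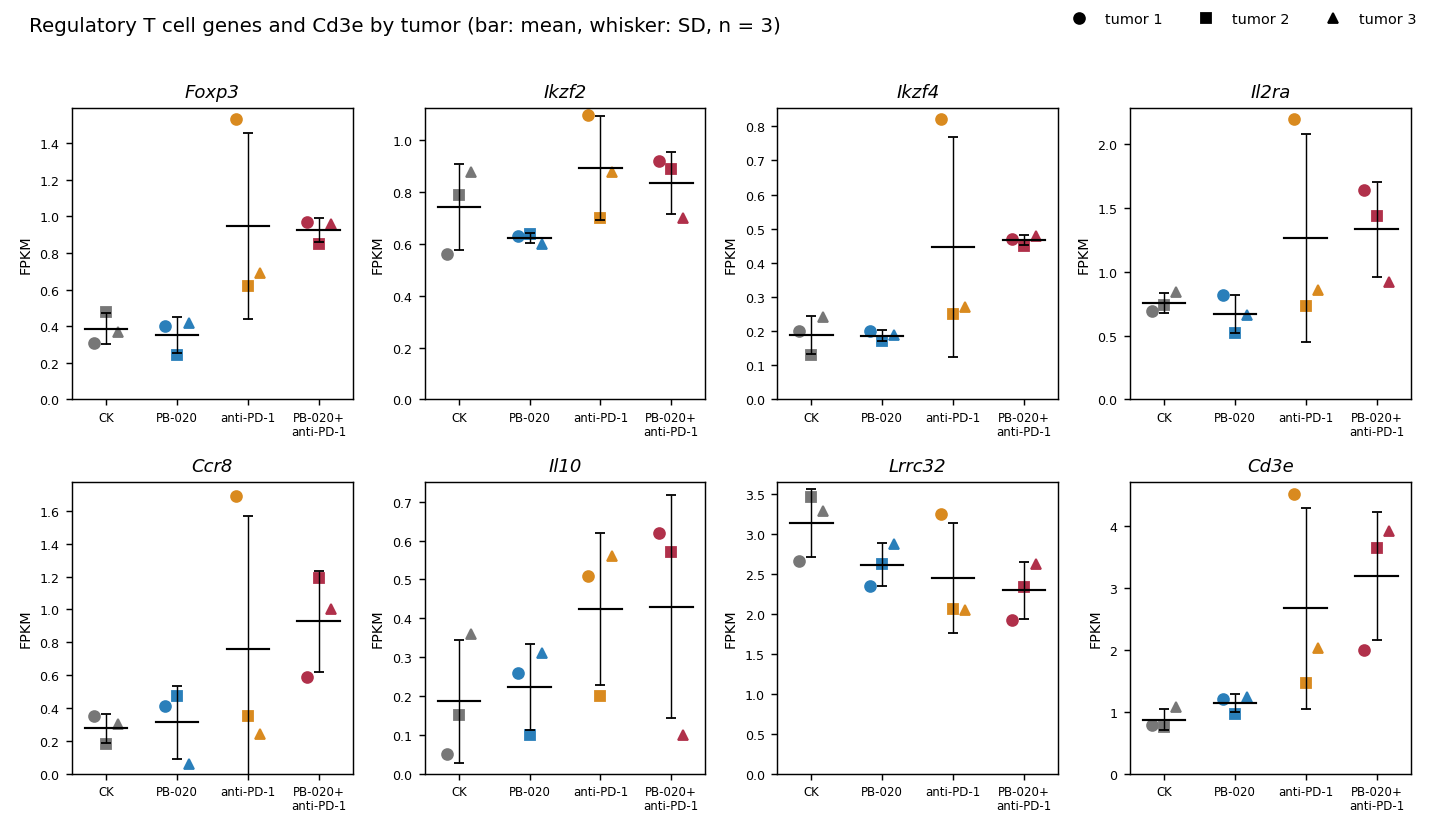
FPKM of the 7 regulatory T cell genes and Cd3e in each tumor, by group. Points are tumors, bars means and whiskers SD over 3 tumors (drawn down to 0 where they would pass below it). Foxp3 separated with anti-PD-1, from 0.62 upwards against at most 0.48 without, while Lrrc32 was highest in a CK tumor at 3.47.

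Of the surface receptors, Il2ra, the alpha chain that gives the interleukin-2 receptor its high affinity, stood at 0.69, 0.74 and 0.84 FPKM in CK and 0.82, 0.52 and 0.66 in PB-020. It stood at 2.20, 0.73 and 0.86 FPKM in anti-PD-1 and 1.64, 1.44 and 0.92 in the combination. The combination tumors were all above the CK and PB-020 tumors, whereas anti-PD-1 tumor 2 lay within them. Between the combination and CK, 17.9% of all genes tested were separated upwards, as were Il2ra, Foxp3, Ikzf4 and Ccr8. The log2 difference over both anti-PD-1 groups was 0.87 (SE 0.26, adjusted p = 0.0306 by edgeR). It was 0.55 without anti-PD-1 tumor 1 (adjusted p = 0.0354). The call was lost in 6 of the 12 fits that left out 1 tumor, namely CK 1 or 2, PB-020 2 or 3, and combination 1 or 2, with differences from 0.78 to 0.87 and adjusted p from 0.0597 to 0.075. It was also lost in limma on log2(FPKM + 1), where adjusted p was 0.0631, and on log2(FPKM + 0.1), where it was 0.0506.

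Ccr8, a chemokine receptor carried by regulatory T cells within tumors, stood at 0.35, 0.18 and 0.30 FPKM in CK and 0.41, 0.47 and 0.06 in PB-020. With anti-PD-1 it stood at 1.69, 0.35 and 0.24, and with the combination at 0.59, 1.19 and 1.0. All 3 combination tumors were above the CK and PB-020 tumors, while 2 of 3 anti-PD-1 tumors were not. From the combination, 17.9% of all genes were separated in this direction against CK and 14.5% against PB-020. The share against both at once was not computed. Ccr8 had passed the filter only through tumors with anti-PD-1, where it was high. Its separation and any call of it are therefore not independent of the filter, and are no support by themselves. The log2 difference was 1.51 (SE 0.52) and missed the threshold (adjusted p = 0.0503 by edgeR). Without anti-PD-1 tumor 1, which alone held 29 counts, it was 0.84 (adjusted p = 0.192).

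Among the secreted and membrane-bound mediators, Il10, the suppressive cytokine, was the lowest member by mean FPKM in CK, anti-PD-1 and the combination. It stood at 0.05, 0.15 and 0.36 FPKM in CK tumors and at 0.26, 0.10 and 0.31 after PB-020. After anti-PD-1 it stood at 0.51, 0.20 and 0.56, and after the combination at 0.62, 0.57 and 0.10. Each group had at least 1 tumor at or below 0.20, so that the groups overlapped. The log2 difference with anti-PD-1 was 1.06 (95% interval -0.04 to 2.16, adjusted p = 0.147 by edgeR). Among 10 macrophage markers, Msr1 and Fcgr1 rose, by 0.45 and 0.46 on the log2 scale, and the others were not called, where 11.8% of all genes were raised. The macrophage sum ranged from 769 to 1050 FPKM in the 6 tumors without anti-PD-1 and from 775 to 1401 in the 6 with it, and its part in the Il10 values was not tested.

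Lrrc32 encodes GARP, which holds latent TGF-beta on the cell surface. It had the highest level of the members in every group. Its FPKM was 2.66, 3.47 and 3.29 in CK tumors and 2.35, 2.63 and 2.88 after PB-020. After anti-PD-1 it was 3.25, 2.06 and 2.05, and after the combination 1.92, 2.34 and 2.63. All 3 combination tumors lay below all 3 CK tumors, as did 22.4% of all genes tested, and 4 of 6 tumors with anti-PD-1 were below all 6 without it. The log2 difference was -0.27 (SE 0.13, adjusted p = 0.136 by edgeR), which is not a call. Without anti-PD-1 tumor 1 it was -0.39 and passed (adjusted p = 0.018).

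Some markers of the other cell types that carry Lrrc32 were abundant in these tumors, and others were low. The endothelial sum of 9 markers lay between 49.7 and 84.9 FPKM without anti-PD-1 and between 45.2 and 74.6 with it, and 1 of its 9 genes, the junction gene Cldn5, fell, by 0.60 on the log2 scale. Of 4 platelet genes tested, Gp1bb and Itga2b fell, by 0.56 and 0.60, where 12.3% of all genes were lowered. Of 6 fibroblast genes Pdgfra, Pdgfrb and Dcn fell, by 0.62, 0.35 and 1.16. The other 3 fibroblast genes were not called and stood higher, Lum at 1.29, Col1a1 at 0.87 and Fap at 0.47. The platelet sum ran from 77.9 to 151 FPKM without anti-PD-1 and from 69.3 to 133 with it. It was mostly Pf4, with group means from 82.5 to 114 FPKM, while Itga2b, Gp1bb, Ppbp and Gp9 had group means of at most 2.68. The fibroblast sum ran from 449 to 714 without anti-PD-1 and from 269 to 588 with it. How much of the Lrrc32 signal came from endothelial cells, platelets or fibroblasts was not tested. Epithelial markers were near 0, with a sum of 2.05 to 4.16 FPKM over 7 genes, of which Cdh1 alone had enough counts to be tested.

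The order of the levels changed little. In CK the mean FPKM ran from Lrrc32 (3.14) through Il2ra (0.757), Ikzf2 (0.743), Foxp3 (0.387) and Ccr8 (0.277) to Ikzf4 (0.19) and Il10 (0.187). In the combination it ran from Lrrc32 (2.30) through Il2ra (1.33), Foxp3 (0.927), Ccr8 (0.927), Ikzf2 (0.837) and Ikzf4 (0.467) to Il10 (0.43). Foxp3 thus stood below Ikzf2 in CK and above it in the combination, where both overlapped. Among neighbours in CK, Il2ra and Ikzf2, Foxp3 and Ccr8, Ccr8 and Ikzf4, and Ikzf4 and Il10 overlapped in range, while Lrrc32 stood clear of Il2ra and Ikzf2 of Foxp3.

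Each treatment was then compared with CK on its own. Against CK, anti-PD-1 alone called 1 member, Foxp3, at a log2 change of 1.33 (SE 0.35, adjusted p = 0.036), where 8.26% of all genes were called. Without anti-PD-1 tumor 1 the change was 0.81 and was not called (adjusted p = 0.124), and the single member then called was Lrrc32, lowered by -0.59 (adjusted p = 0.0488). The share of all genes called was not computed for fits that left out a tumor. The Foxp3 call was lost in 8 of the 12 fits that left out 1 tumor, with adjusted p from 0.0508 to 0.124. These fits lacked CK 1, 2 or 3, PB-020 1, anti-PD-1 1 or 3, or combination 1 or 3. Other members stood at 1.2 (Ikzf4), 0.75 (Il2ra), 1.47 (Ccr8), 1.18 (Il10), 0.29 (Ikzf2) and -0.35 (Lrrc32). Without tumor 1 they stood at 0.53, 0.10, 0.13, 1.04, 0.13 and, as given, -0.59.

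The combination against CK called 2 members, Foxp3 at 1.30 (SE 0.35, adjusted p = 0.0235) and Ikzf4 at 1.32 (SE 0.41, adjusted p = 0.0392), where 17.9% of all genes were called. Il2ra (0.84), Ccr8 (1.76) and Lrrc32 (-0.44) had an unadjusted p under 0.05, like 33.9% of all genes, and were not called, at adjusted p of 0.131, 0.111 and 0.103. With anti-PD-1 tumor 1 left out, the SE of Foxp3 was 0.27 in place of 0.35, and Il2ra, Ccr8 and Lrrc32 were called as well, which made 5 members. The share of all genes called in that fit was not computed, so the 17.9% does not apply to it. Without any one of the 6 CK or combination tumors, no member was called, and Foxp3 then had adjusted p from 0.0505 to 0.0724. Ikzf4 was lost in those 6 fits and without PB-020 1 or 3, with adjusted p from 0.0512 to 0.155. In the combination against PB-020, Foxp3 was the 1 member called, at 1.40 (SE 0.36, adjusted p = 0.0487), where 3.35% of all genes were called. That count fell to 0 without any one CK, PB-020 or combination tumor or anti-PD-1 3, and rose to 3 without anti-PD-1 1, again with no share of all genes computed. By a looser rule, a fold change above 1.5 at an unadjusted p under 0.05, 2 members passed for anti-PD-1 against CK, 4 for the combination against CK and 3 for the combination against PB-020, where 7.18%, 8.52% and 5.93% of all genes did.

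PB-020 alone showed no called member against CK, nor any called gene (0% of 13563). By edgeR, 741 genes (5.46%) had an unadjusted p under 0.05, none of them a member, and DESeq2 and limma on FPKM also called no member. Foxp3 differed by -0.10, with a 95% interval from -0.90 to 0.69, Il2ra by -0.16 (-0.98 to 0.66) and Ikzf4 by 0.08 (-0.84 to 1.0). These intervals do not exclude changes of 1.5-fold in either direction. Lrrc32 and Ikzf2 had narrower intervals, which do not exclude a fall of that size, from -0.64 to 0.14 and from -0.63 to 0.20.

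When the combination was set against anti-PD-1, edgeR called no member (0% of all genes called, 984 genes, or 7.26%, with an unadjusted p under 0.05, no member among them). Foxp3 differed by -0.03, with a 95% interval from -0.74 to 0.69, and Ccr8 by 0.29, from -1.11 to 1.69. Without anti-PD-1 tumor 1 the Foxp3 difference turned to 0.49 (adjusted p = 0.69), and Ikzf2 and Lrrc32 turned to 0.06 and 0.15. The interaction term, which asks whether both drugs together differ from the sum of each on the log2 scale, called no member and no gene (0%), with 310 genes (2.29%) and no member at an unadjusted p under 0.05. Its Foxp3 value was 0.08, with a 95% interval from -0.99 to 1.14.

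**Figure D2:**
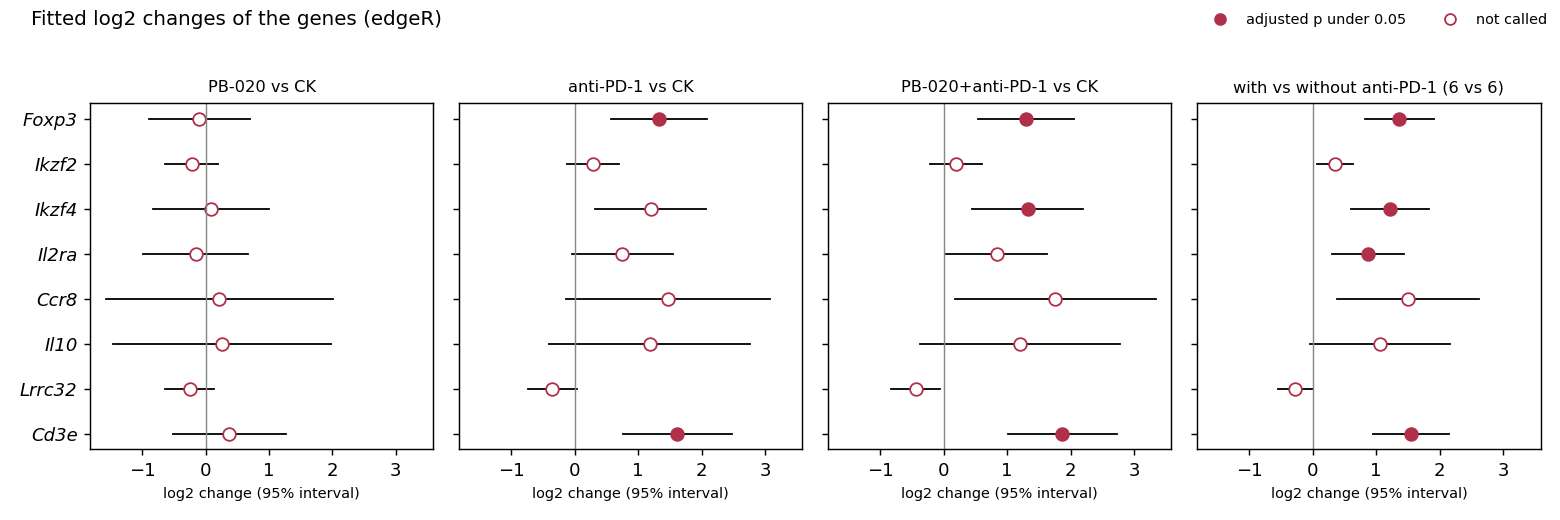
Fitted log2 changes with 95% intervals for the 7 genes and Cd3e in 4 comparisons, PB-020, anti-PD-1 and the combination each against CK, and 6 tumors with against 6 without anti-PD-1. Filled points had an adjusted p under 0.05. Foxp3 was called in 3 of the 4 panels, Il2ra in the last only, at 0.87, and Ikzf2, Ccr8, Il10 and Lrrc32 in none.

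In tumors with against without anti-PD-1, 5 of the 7 members had an unadjusted p under 0.05, where 37.9% of all genes did. Cd3e stood at 0.79, 0.76 and 1.07 FPKM in CK tumors and at 1.2, 0.97 and 1.24 after PB-020. After anti-PD-1 it stood at 4.52, 1.47 and 2.03, and after the combination at 2.0, 3.65 and 3.91. As with Foxp3, all tumors with anti-PD-1 were above all without. Cd3e rose by 1.55 on the log2 scale (SE 0.28, adjusted p = 0.00242), and by 1.25 without anti-PD-1 tumor 1. Cd8a, the coreceptor of cytotoxic T cells, rose by 1.28 (adjusted p = 0.00634), and Cd4, the coreceptor of helper and regulatory T cells, stood at 0.85 (adjusted p = 0.0524), all by edgeR. Of 13 T cell markers, 12 were raised, where 11.8% of all genes were.

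The members were therefore read against Cd3e within each tumor. As a ratio of FPKM, Foxp3 to Cd3e was 0.392, 0.632 and 0.346 in CK tumors and 0.333, 0.247 and 0.339 after PB-020. After anti-PD-1 it was 0.338, 0.422 and 0.340, and after the combination 0.485, 0.233 and 0.246. Tumors with and without anti-PD-1 overlapped, with CK tumor 2 highest and combination tumor 2 lowest. The PB-020 tumors lay just below the CK tumors (at most 0.339 against at least 0.346), although these groups overlapped on the log2 scale used below. The FPKM ratios of Il2ra, Ikzf2 and Lrrc32 were also lower in every PB-020 tumor than in every CK tumor. Those of Ikzf4, Ccr8 and Il10 overlapped. The share of all genes separated in this way was not computed. Relative to Cd3e, the median log2 difference of all genes between PB-020 and CK was -0.35. On the log2 scale of CPM (counts scaled to the library total) the Foxp3 ratio differed by -0.11 between tumors with and without anti-PD-1. Its exact permutation p was 0.63 (two-sided, over 924 splits of 6 against 6). Ikzf4 differed by -0.29 (p = 0.117), Ccr8 by -0.26 (p = 0.474) and Il10 by -0.62 (p = 0.21) in the same exact test. These p values do not show that the ratios were equal.

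Ikzf2 and Lrrc32 were lower relative to Cd3e. The Ikzf2 ratio was 0.709, 1.04 and 0.822 in CK and 0.525, 0.660 and 0.484 in PB-020, against 0.243, 0.476 and 0.433 in anti-PD-1 and 0.46, 0.244 and 0.179 in the combination. The Lrrc32 ratio was 3.37, 4.57 and 3.07 in CK and 1.96, 2.71 and 2.32 in PB-020, against 0.719, 1.40 and 1.01 in anti-PD-1 and 0.96, 0.641 and 0.673 in the combination. Neither gene overlapped between tumors with and without anti-PD-1, Ikzf2 only just (0.476 against 0.484), and 74.6% of all genes tested were likewise lower in every tumor with it. The log2 differences were -1.04 for Ikzf2 and -1.66 for Lrrc32, each with the smallest exact permutation p that 924 splits can give, 0.00216. Il2ra differed by -0.62 (exact permutation p = 0.0368).

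In a limma fit of the same ratios over all genes, Ikzf2 (adjusted p = 0.00119) and Lrrc32 (adjusted p = 1.52e-06) were the 2 members called, both lowered, where 95.7% of all genes were lowered. The median over all genes was -1.38, close to the rise of Cd3e itself with its sign turned, with Ikzf2 above that median and Lrrc32 below it. Since the error of Cd3e enters every ratio, these adjusted p values are not independent between genes and may be too small, which was not tested. Against CK alone, the limma fit called Ikzf2 and Lrrc32 with anti-PD-1 (90.8% of genes lowered), and Ikzf2, Lrrc32 and Il2ra with the combination (95.2% of genes lowered). Il2ra was then at -0.95 (adjusted p = 0.0395). Without anti-PD-1 tumor 1, the limma fit over both anti-PD-1 groups called 3 members, all lowered. These were Il2ra at -0.63 (adjusted p = 0.0192), Ikzf2 at -0.89 and Lrrc32 at -1.54, while Foxp3 stood at -0.08. The share of all genes lowered was not computed for that fit. With PB-020 against CK no member was called (0.00737% of genes lowered), and Foxp3 relative to Cd3e stood at -0.47 (SE 0.48).

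**Figure D3:**
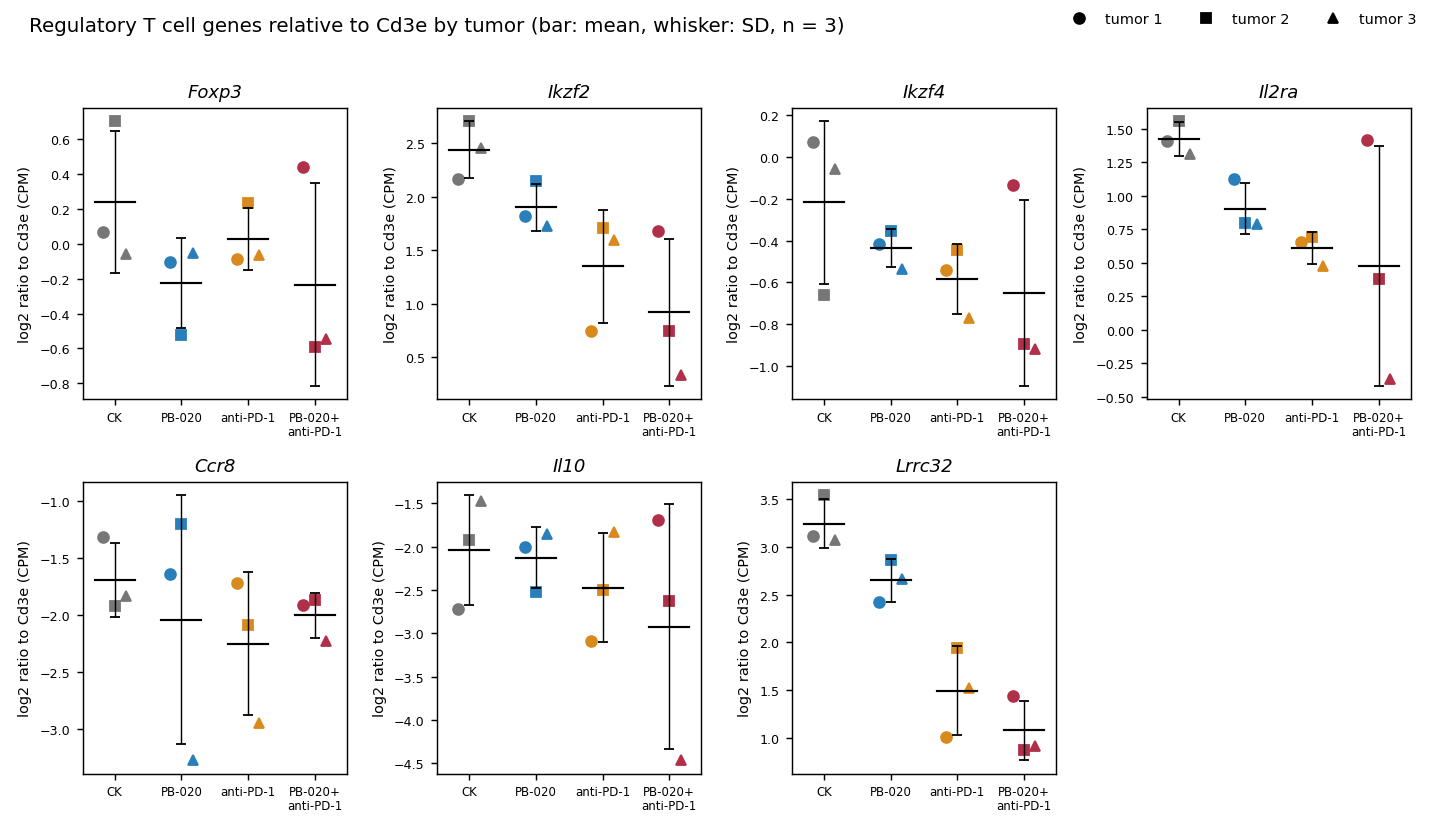
Log2 ratio of each of the 7 genes to Cd3e in the same tumor, from CPM (counts scaled to the library total), by group. Points are tumors, bars means and whiskers SD over 3 tumors, and the vertical scale differs between panels. Foxp3 overlapped in all groups, whereas Ikzf2 and Lrrc32 were lower in every tumor with anti-PD-1, by 1.04 and 1.66 on average, as were 74.6% of all genes, whose median difference was -1.38.

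The choice of reference mattered for Foxp3. Cd4 itself differed by -0.64 relative to Cd3e between tumors with and without anti-PD-1 (exact permutation p = 0.00433). Every log2 difference relative to Cd4 is therefore higher by that amount than the one relative to Cd3e. Relative to Cd4 its log2 difference with anti-PD-1 was 0.53 (exact permutation p = 0.0152, two-sided), and relative to Cd8a it was 0.07 (p = 0.764). Relative to the mean of 13 T cell markers it was 0.06, and relative to the 4 CD3 and zeta chains (Cd3d, Cd3e, Cd3g and Cd247) it was -0.06. The Foxp3 to Cd4 value was not called in the limma fit over all genes (adjusted p = 0.172). Ikzf4 and Ccr8 also turned sign against Cd4, at 0.35 and 0.38, without reaching the threshold in either test. Il2ra against Cd4 stood at 0.02 and Ikzf2 at -0.40, neither called, while Lrrc32 stayed lower at -1.02 (exact permutation p = 0.00433). Over these 5 references and 7 members, 35 values were computed, besides those of Cd4 and Cd8a themselves. The permutation p values are not adjusted for that.

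Other genes of the same biology were read from lists. Among 12 tested surface receptors of regulatory T cells, 9 rose with anti-PD-1 and none fell, with a list median of 0.74. Over all genes tested, 11.8% were raised in this comparison. The smallest p values belonged to Ctla4, the inhibitory receptor that competes for costimulatory ligands, which rose by 1.60 (adjusted p = 0.00107), Cd27, a costimulatory receptor of the TNF receptor family, by 1.81 (adjusted p = 0.00132), and Tigit, a further inhibitory receptor, by 1.28 (adjusted p = 0.0024). Many of these receptors are carried by activated T cells of other kinds as well. Not called were the neuropilin Nrp1 at -0.30, Itgae at 0.54 and Izumo1r at 1.23. Gpr83 and Ccr4 had too few counts to be tested.

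Among 14 transcription factors that act in regulatory T cells, 6 were raised and none lowered, with a median of 0.44, where 11.8% of all genes were raised. Ikzf3, which encodes Aiolos of the Ikaros family, rose by 1.60, Prdm1, which encodes Blimp-1, by 0.60, and Foxo1, a forkhead factor, by 0.25. Ikzf1, Gata3 and Satb1 were the other 3. Runx1, Cbfb, Bach2, Ikzf5, Nr4a1, Rel, Batf and Irf4 were not called. Within the Ikaros family, therefore, Ikzf1, Ikzf3 and Ikzf4 passed the threshold and Ikzf2 and Ikzf5 did not, and the difference between them was not tested.

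Of 8 tested genes of the interleukin-2 axis, 3 were raised, where 11.8% of all genes were. These were the receptor chains Il2rg by 0.85 and Il2rb by 0.95 and the signaling inhibitor Socs1 by 0.91, with a list median of 0.29. The kinases Jak1 and Jak3, the factors Stat5a and Stat5b, and Cish were not called. Il2 itself was listed at 0 in 6 of 12 tumors and was not tested. Of 5 tested suppressive mediators, Fgl2 rose by 1.07, Ebi3 by 0.58 and Nt5e, which encodes the nucleotidase CD73, by 0.51, while Entpd1 and Tgfb1 were not called. Among the ligands, receptors and activators that serve Ccr8, Il10 and Lrrc32, none of 10 tested was called by edgeR, where 24.2% of all genes were. An unadjusted p under 0.05 was found for 3 of the 10, and for 37.9% of all genes. These 3 were Il10ra at 0.57, Itgb8 at -0.71 and Tgfbr1 at -0.14. Ccl8, a ligand of CCR8, stood at 1.11 (adjusted p = 0.169).

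**Figure D4:**
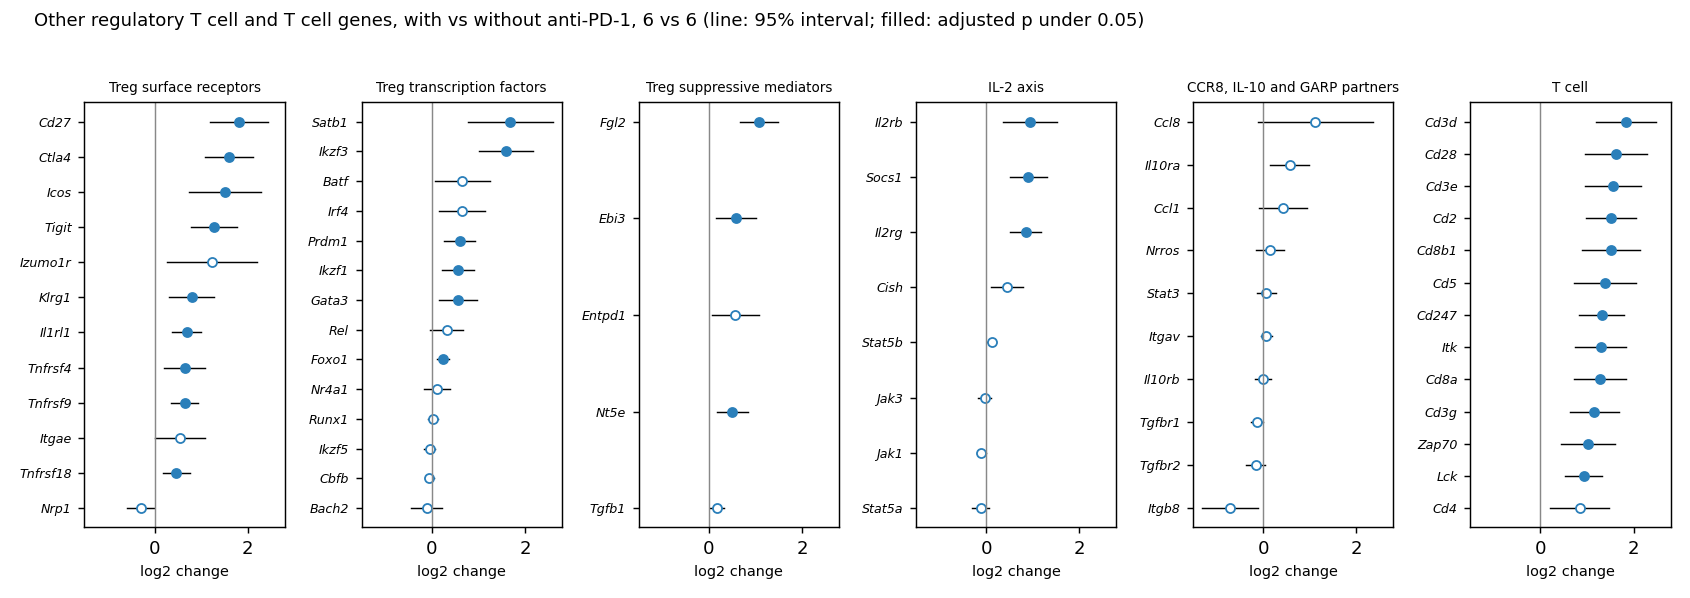
Log2 differences between 6 tumors with and 6 without anti-PD-1 for tested genes of 6 lists, with 95% intervals, and filled points where adjusted p was under 0.05. Of the genes drawn, 9 of 12 surface receptors, 6 of 14 transcription factors, 3 of 5 mediators, 3 of 8 genes of the interleukin-2 axis, 0 of 10 partners and 12 of 13 T cell markers were raised. Over all genes tested, 11.8% were raised.

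Of 6 dendritic cell markers 3 rose, Itgax, Xcr1 and Clec9a, where 11.8% of all genes were raised. The sum of all 6 ranged from 9.54 to 13.02 FPKM without anti-PD-1 and from 12.02 to 19.6 with it. B cell markers were near 0, at a sum of 0.37 to 1.41 FPKM over 5 genes. The T cell sum ranged from 15.9 to 28.8 FPKM without anti-PD-1 and from 36.3 to 87.2 with it. The dendritic and T cell markers moved in the same direction as Foxp3, and their part in its level was not tested.

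The genes whose log2 expression followed Foxp3 most closely over the 12 tumors were Dbnl (Pearson r = 0.957, Spearman rho = 0.867), Ces2g (0.953 and 0.93), Rab27a (0.946 and 0.867), Usf1 (0.943 and 0.93) and Fcgr4 (0.943 and 0.895). They are given as a description, since the tumors share their treatments and the best of 13563 genes were picked. Cd3e came 82nd in that order with r = 0.89, Il2ra 130th with 0.872 and Ikzf4 215th with 0.851. Ikzf2, Ccr8 and Il10 had r of 0.735, 0.647 and 0.588, and Lrrc32 -0.21. After the mean of each group was taken away, Pik3r1 (0.969), Kif1a (0.953), Coq8a (0.951), Ctsf (0.946) and Rnf44 (0.945) came first, and Cd3e had r = 0.661.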

How the data were processed

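RNA was extracted from 12 tumors and sequenced on an Illumina HiSeq X instrument, with 150 bases read from each end. Bowtie2 was used by the authors for alignment and RSEM for quantification, with versions and annotation not given in the sources used here. Submitters' processing notes also name HISAT, with no role, and the build GRCm38.p6. The deposited expected counts are estimates without normalization, of which 91.0% are whole. The deposited FPKM values are scaled by the authors to gene length and library total, and the deposited TPM values, not used in a test, to a common library sum. The authors' group averages were not used. Of 18211 gene IDs, 18087 (99.32%) matched RefSeq genes of GRCm38.p6.

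Expected counts were rounded, filtered with filterByExpr (minimum count 10) and TMM-scaled, and 1 quasi-likelihood model of 4 group means was fitted to all 12 libraries in edgeR 4.0.16 under R 4.3.3. Tests were two-sided, with Benjamini-Hochberg adjustment over 13563 genes and a threshold of 0.05. SE and 95% intervals are from that model. Ratios to Cd3e were tested with limma 3.58.1 on log2 CPM (prior count 2) and, added after seeing the data, by an exact permutation test over samples. Groups and tumor numbers came from the sample titles, doses and days from the study's methods. Nothing says whether tumors shared a cage or day, so p values measure the spread between these tumors. Depth was 16545394 to 17217035 expected counts per tumor, with a median of 16927043.

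The 7 genes, the lists and the motifs were chosen with earlier results of these data known. Named besides the members, Cd3e, Cd4 and Cd8a are up to 3 genes per list, those with the smallest p, and the 5 genes most like Foxp3 on each measure. Other list genes were named after their values were seen. On counts simulated for the combination against CK, over 13473 genes, edgeR recovered 35 of 67 genes changed 1.5-fold, 48 of 67 changed 2-fold and 55 of 66 changed 3-fold, and called 9 of 13363 unchanged genes. Alternatives were DESeq2 1.42.0, limma on log2(FPKM + 1) and log2(FPKM + 0.1), no filter, a strict filter, library size alone, fits of the compared groups alone, a block for the replicate number, other call rules and references, and each tumor left out in turn. The references Cd8a and the T cell marker mean were added after seeing the data.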

Additional observations from a re-analysis of the deposited data

How the results depend on the processing

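The count of members called in tumors with against without anti-PD-1 stayed at 3 with DESeq2, with no filter or a strict filter and with library size alone, and was 2 with limma on log2(FPKM + 1) or log2(FPKM + 0.1). Both limma settings gave 0 members for anti-PD-1 against CK, 1 for the combination against CK and 0 for the combination against PB-020, and library size alone gave 0 for the last. A fit of only the groups compared gave 0, 5 and 3, and the looser rule by fold change gave 2, 4 and 3. Apart from the looser rule, the share of all genes called was not computed for these settings. With Cd4 as the reference, 1 member was called for tumors with against without anti-PD-1, 0 for the combination and 0 for anti-PD-1 against CK. Cd4 itself differed by -0.64 relative to Cd3e, and this enters every ratio to Cd4. Its part in these counts was not tested. Counts for PB-020 against CK, the combination against anti-PD-1 and the interaction were 0 in all settings run. With only the groups compared, no fit of the interaction or of the 6 against 6 tumors was made. The strict filter left out Ccr8 and Il10, as did fits of the compared groups alone for PB-020 and for anti-PD-1 against CK, and that for the combination against CK left out Il10.

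Leaving out 1 tumor at a time, counts ran from 2 to 5 for tumors with against without anti-PD-1, from 0 to 2 for anti-PD-1 against CK, from 0 to 5 for the combination against CK, from 0 to 3 for the combination against PB-020 and 0 for the other 3. Relative to Cd3e they ran from 2 to 4, from 1 to 3 (anti-PD-1 against CK) and from 2 to 4 (combination against CK).

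With the replicate block, 0 members were called for anti-PD-1 against CK and 0 for the combination against PB-020, and Foxp3 in the combination against anti-PD-1 turned to 0.028. The tumor numbers were not treated as pairs, since over 18 pairs of same-numbered tumors the correlation of deviations from the group means ran from -0.21 to 0.29 with a median of -0.04, and 2 exceeded 0.1. The other counts kept within 1.5 times.

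Directions that turned were all of values not called. For PB-020 against CK, limma on log2(FPKM + 1) gave Ikzf4 -0.0031 and log2(FPKM + 0.1) gave Ccr8 -0.039. For the combination against anti-PD-1, limma gave Foxp3 0.015 and 0.072 and Il10 -0.0050 and -0.11 at pseudocounts of 1 and 0.1. Relative to Cd4, Foxp3 was 0.53, Il2ra 0.019, Ikzf4 0.35, Ccr8 0.38 and Il10 0.023. Foxp3 was 0.066 relative to Cd8a and 0.059 relative to the T cell markers. Relative to Cd3e, Foxp3 ran from -0.277 to 0.0078 without 1 tumor, the last without CK tumor 2. Over fits without 1 tumor, log2 changes for PB-020 against CK ran from -0.27 to 0.12 (Foxp3), -0.19 to 0.31 (Ikzf4), -0.19 to 0.69 (Ccr8) and -0.18 to 1.09 (Il10). For the combination against anti-PD-1 they ran from -0.24 to 0.49 (Foxp3), -0.17 to 0.74 (Il2ra), -0.23 to 0.060 (Ikzf2), -0.13 to 0.79 (Ikzf4), -0.12 to 1.63 (Ccr8), -0.33 to 0.48 (Il10), -0.19 to 0.15 (Lrrc32) and -0.025 to 0.87 (Cd3e). With 1 to 29 counts per tumor, depth limits Il10 and Ccr8 most.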
